A study of Mus musculus with 26 samples.

Results

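Among the Pdgfra reporter cells of the mouse forebrain at embryonic day 13.5 (E13.5), 82 of 293 wells held the collagen and proteoglycan RNA of fibroblast-like mesenchyme and little neuronal RNA. They were chosen from their own counts. A well entered if it held at least 1000 molecules, at least 5 molecules of Col1a1, Col1a2, Col3a1, Lum and Dcn together, and under 3 molecules of the neuronal genes Snap25, Syt1, Stmn2, Rbfox3, Gad1 and Slc17a6 together. The whole series held 1514 wells of this depth on 26 chips, from 2496 wells in the files. These wells are called mesenchymal wells here, and the remaining wells of the same chips are called other wells.

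The leptomeninges are the thin inner coverings of the brain. Their fibroblast-like cells lay down fibrillar collagens and small proteoglycans, help to build the basement membrane at the brain surface, and secrete signals such as retinoic acid, BMPs and the chemokine CXCL12 toward the developing cortex. In the forebrain much of this tissue comes from the neural crest, and after birth its cells are known for solute transporters and gap junctions. Together with similar cells around blood vessels they are called vascular and leptomeningeal cells (VLMCs).

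All cells came from reporter animals sorted for GFP. The E13.5 brain (6 chips) and the E13.5 spinal cord (3 chips) came from Pdgfra-H2BGFP embryos, in which one Pdgfra allele carries a nuclear histone-GFP fusion, so that sorted cells may have lost Pdgfra RNA and kept the protein. At postnatal day 7 (P7), 2 brain chips came from the same line without treatment, and 9 came from Pdgfra-cre-ERT/RCE mice, in which tamoxifen lets a Cre made under Pdgfra control switch on GFP permanently. Of these, 6 were treated at E12.5 and 3 at P3, and all were collected at P7. The counts are single molecules per gene and well, read from the 5′ ends of transcripts, and a C1 chip of 96 wells is the unit of replication. Nothing in the labels says that chips came from separate animals, so p-values measure the spread between chips, which may be technical. E13.5 tissue was dissociated mechanically and P7 tissue with an enzyme, so age and dissociation cannot be told apart. Strain differed as well between E13.5 and the traced P7 chips.

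The 82 mesenchymal wells held 335883 molecules in all. A well had between 1112 and 14491 molecules (median 2914) and a median of 1457 genes, against a median of 2983 molecules in the other wells. No well name occurred on more than 1 chip, and 0 kept wells had identical counts. Chip 6 was deeper than the rest, with a median of 6764 molecules in its mesenchymal wells against 2435 to 3887 on the other chips. The column names of the files give chips 1, 2, 3 and 6 one sample number (set A here) and chips 24 and 25 another (set B). These sets match in size the separate E13.5 brain experiments that the study's methods list. Expression is given as CPM, molecules scaled to a total of 1e+06 in the summed mesenchymal wells of a chip, and 3 molecules over all 82 wells correspond to 8.93 CPM.

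The genes that chose the wells were high on every chip. Summed over the 5 collagen and matrix genes, the mesenchymal wells held between 9035 and 20451 CPM per chip (median 13124), against 167 to 3293 CPM in the other wells. Col1a1, a chain of type I collagen, was at 884, 1875, 2390, 779, 1351 and 1015 CPM on chips 1, 2, 3, 6, 24 and 25. Col1a2, its partner chain, was at 3330, 4490, 5274, 2129, 3055 and 2242 CPM on the same chips. Col3a1, which forms the type III collagen of soft tissue, was at 3806, 5580, 7399, 3340, 4483 and 4862 CPM. Chip 3 was the highest and chip 6 the lowest for Col1a1, Col1a2 and Col3a1. The small proteoglycans that bind collagen fibrils were Lum, with 1155 to 2580 CPM per chip, and Dcn, with 1182 to 4894 CPM. A single mesenchymal well held 5 to 217 molecules of the 5 genes (median 39). Few wells lay near the limits of the rule: 3 wells held exactly 5 collagen and matrix molecules and 2 held 4, and 10 wells held 2 neuronal molecules and 5 held 3. A further 21 wells met the collagen limit and were left out for their neuronal molecules.

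Because the molecules were read at the 5′ end, the counts of these genes start near their promoters. The promoters of Col1a2 and Col3a1, as RefSeq places them on GRCm38.p6 with 250 bases before the start and 50 from it, are shown because these collagens carry the choice of the wells. That of Col1a2 lies at chr6:4505368-4505667 on the plus strand and that of Col3a1 at chr1:45311288-45311587 on the plus strand. Capitals mark CCAAT and TATAAA on either strand. Positions are counted from the first transcribed base, which is 1.
Col1a2: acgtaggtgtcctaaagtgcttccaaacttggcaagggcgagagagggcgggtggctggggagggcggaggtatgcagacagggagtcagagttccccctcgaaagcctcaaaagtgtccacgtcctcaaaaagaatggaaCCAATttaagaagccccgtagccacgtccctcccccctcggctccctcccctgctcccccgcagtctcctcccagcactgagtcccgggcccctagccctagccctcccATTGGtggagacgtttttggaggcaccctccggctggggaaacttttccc
Col3a1: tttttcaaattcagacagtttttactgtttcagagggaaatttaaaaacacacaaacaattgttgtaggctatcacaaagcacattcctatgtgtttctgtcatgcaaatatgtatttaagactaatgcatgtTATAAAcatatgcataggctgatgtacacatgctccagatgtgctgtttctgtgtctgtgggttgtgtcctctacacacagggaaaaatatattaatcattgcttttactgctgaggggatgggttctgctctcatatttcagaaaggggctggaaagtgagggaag
Col1a2 had CCAAT at -109 and, on the opposite strand, at 1, and Col3a1 had TATAAA at -117. Among 32851 mouse promoters of this length, 37.4% held CCAAT and 13.6% held TATAAA on either strand, so the matches are descriptions only.

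The mesenchymal wells were then set beside the other wells of the same chips. Because the wells were chosen on their own counts, these values describe the chosen wells and carry no test. Of 2258 genes with at least 100 CPM in the mesenchymal wells, 227 (10.1%) were higher than in the other wells on every chip. The 30 with the largest ratios included Lgals1, Col4a1, Col4a2, Col4a5, Col5a2, Col6a2, Col6a3, Fbn2, Nid2, Lamb1, Frem1, Gja1, Slc1a3, Igf2, Cxcl12, Tbx18, Serpinf1, Tfpi and Vtn. These are mostly collagens, basement membrane and microfibril proteins, together with a gap junction protein and a glutamate transporter of the cell membrane.

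Matrix genes outside the rule followed the same pattern. The 25 other collagen genes summed to 5184 to 10163 CPM per chip (median 8392), against 423 to 2220 CPM in the other wells. Type IV collagen, the network of basement membranes, led this group, with Col4a1 at 2108 CPM and Col4a2 at 631 CPM over all mesenchymal wells, against 247 and 71.6 CPM in the other wells. Genes for collagen folding and crosslinking summed to 4452 to 7476 CPM, against 728 to 1813 CPM. The chaperone Serpinh1 was at 2605 CPM against 618 CPM, and Sparc, a collagen-binding glycoprotein, was at 1450 CPM against 316 CPM. Basement membrane genes summed to 2683 to 5481 CPM, against 515 to 1541 CPM. Among them Nid2, a nidogen that links laminin to collagen IV, was at 643 CPM against 66.4 CPM. Frem1, a protein of epithelial and mesenchymal basement membranes, was at 339 CPM against 19.5 CPM. Proteoglycans and glycoproteins summed to 4214 to 8461 CPM, against 1114 to 2506 CPM. Fbn2, the fibrillin of embryonic microfibrils, was at 851 CPM against 85.9 CPM.

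Among signalling genes, the IGF list summed to 4401 to 8360 CPM per chip and the chemokine and guidance list to 3923 to 5853 CPM, against 1908 to 2809 CPM and 1606 to 2887 CPM in the other wells. The retinoic acid list summed to 980 to 2005 CPM per chip, against 45.3 to 692 CPM in the other wells. Aldh1a2, the enzyme that makes retinoic acid in the meninges, had 26 molecules in 14.6% of the mesenchymal wells and 0 molecules in the 211 other wells. Cyp26b1, which breaks retinoic acid down, had 0 molecules in the mesenchymal wells. Cxcl12, the chemokine of the meninges, was at 852 to 1632 CPM per chip and at 982 CPM over all mesenchymal wells, against 170 CPM in the other wells. Bmp7 was at 339 CPM against 91.1 CPM and Bmp4 at 125 CPM against 29.9 CPM. The Wnt list overlapped between mesenchymal wells (680 to 1520 CPM) and other wells (673 to 1407 CPM). Pdgfra itself, the receptor whose locus drives the reporter, was at 75.9 to 816 CPM per chip (median 274), with 301 CPM over all mesenchymal wells and 80.7 CPM over the other wells. It was detected in 46.3% of mesenchymal wells and 12.3% of other wells. Molecules of the reporter itself were found in 8 of 82 mesenchymal wells (9.76%) and in 6 of 211 other wells (2.84%).

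Transcription factors of head mesenchyme were detected in part of the wells. Tbx18, a T-box factor of mural and meningeal cells, was at 512 CPM in the mesenchymal wells and 74.2 CPM in the other wells. It had a molecule in 56.1% of the former and 12.8% of the latter. Foxc1, a forkhead factor needed for meninges to form, was at 229 CPM against 56.0 CPM, and Prrx1 and Foxd1 were at 208 and 119 CPM against 50.8 and 24.7 CPM. Zic1, a zinc finger factor of meninges and of neural progenitors, was at 851 CPM against 627 CPM and thus abundant in both. Alx4, a factor of cranial mesenchyme, had 20 molecules (59.5 CPM, against 19.5 CPM), but the list of 16 cranial mesenchyme factors was higher in the mesenchymal wells on only 3 of 6 chips (304 to 741 CPM, against 382 to 797 CPM). Twist1, a factor of neural crest derived mesenchyme, was at 98.2 CPM against 27.3 CPM.

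Markers fixed for other cell types gave a mixed picture. The macrophage and microglia list had 0 molecules in the mesenchymal wells, and the red blood cell list had molecules on 1 chip only, at 30.7 CPM. Endothelial genes summed to 30.7 to 131 CPM per chip. The pericyte list was higher in the mesenchymal wells on all 6 chips (1013 to 1669 CPM, against 49.8 to 1269 CPM), but 1087 of its 1417 CPM came from Vtn, while Rgs5, Kcnj8 and Acta2 had 4, 1 and 2 molecules. The chondrogenic and osteogenic list was higher in the mesenchymal wells on 1 of 6 chips (298 to 599 CPM, against 562 to 1359 CPM). The list of neuronal genes outside the rule summed to 1959 to 4839 CPM, against 6157 to 11675 CPM in the other wells. Neural progenitor genes summed to 2311 to 4155 CPM, against 3932 to 13602 CPM. Neural RNA was thus lower but not absent: 52 of the 82 wells (63.4%) held at least 3 molecules of Tubb3, Dcx, Map2, Elavl3, Dlx1, Dlx2, Dlx5 and Dlx6os1 together. At least 3 molecules of OPC genes (Olig1, Olig2, Sox10, Gpr17, Neu4, Bcan, Ptprz1 and Cspg5) were found in 12 wells (14.6%). Whether a well held 2 cells, a cell of mixed state or free RNA was not tested, and such wells were kept. The leading genes were those of mesenchymal, fibroblast-like cells, and Tbx18, Foxc1, Aldh1a2, Slc22a6 and Cxcl12, all known from the leptomeninges, were among the genes present. Of the 36 genes of the meningeal transport and junction list, 28 were detected. The list summed to 5640 to 9244 CPM per chip, against 1142 to 3852 CPM in the other wells. Some of its transporters were near the floor, with 2 molecules of Slc22a8, 1 of Slc13a3 and 1 of Slc22a2. The sort does not separate leptomeninges from other mesenchyme of the head, and Ptgds, a marker of mature meningeal cells, was present in only 6.10% of the wells.

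**Figure D1:**
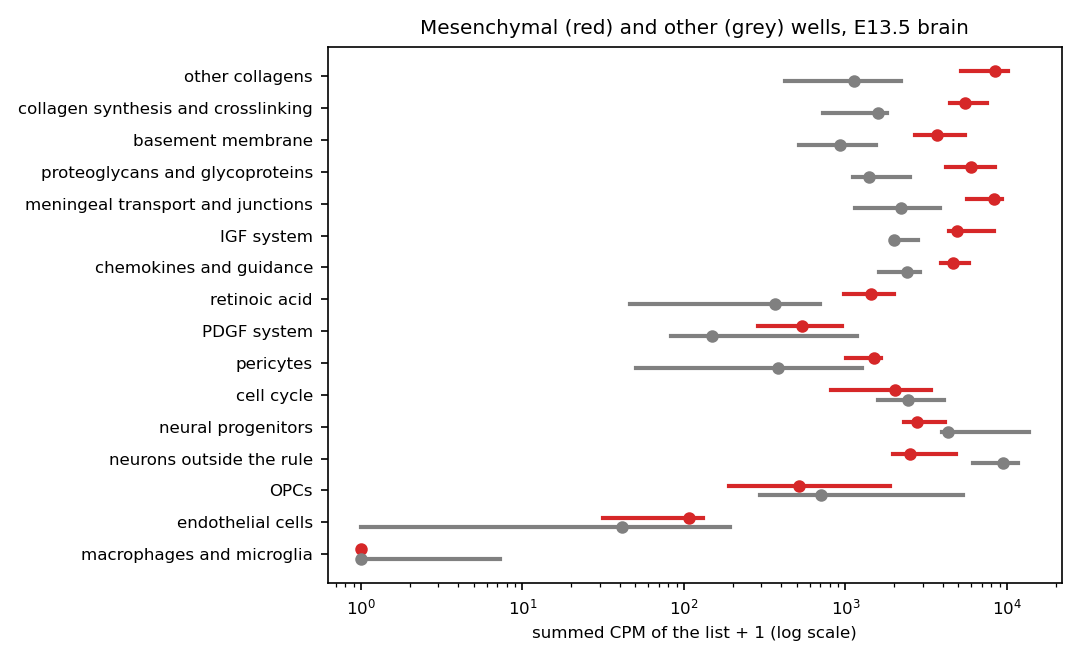
Summed expression of 16 gene lists (CPM + 1, log axis) in mesenchymal wells (red) and in other wells (grey) of the 6 E13.5 brain chips, with the median as a dot and the lowest to highest chip as a line. The collagen, basement membrane, proteoglycan and transport lists were separated by wide margins, while the neuronal and progenitor lists were higher in the other wells.

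The share of wells that met the rule varied widely between chips of the same group. In the E13.5 brain it was 13.9% (5 of 36 wells), 17.0% (9 of 53), 11.3% (7 of 62), 30.9% (25 of 81), 63.2% (24 of 38) and 52.2% (12 of 23) on chips 1, 2, 3, 6, 24 and 25. The chips of set B stood above those of set A, with 57.7% ± 7.77 (SD, n = 2) against 18.3% ± 8.72 (SD, n = 4). The difference of 39.4 percentage points had p = 0.133 in a two-sided exact permutation test over chips, which is the smallest p that this number of chips allows. In the E13.5 spinal cord 28.6%, 37.8% and 31.6% of wells met the same rule. The means were 31.4% ± 21.7 (SD, n = 6) in the brain and 32.7% ± 4.72 (SD, n = 3) in the cord, and they differed by less than the spread between brain chips (difference -1.29 points, exact permutation p = 0.905, two-sided, smallest possible 0.0238). Within the sets the direction was not the same, since the brain chips of set A alone were 14.4 points below the cord (exact permutation p = 0.114, smallest possible 0.0571) and those of set B alone were 25.0 points above it (exact permutation p = 0.200, the smallest possible). The rule left out 70 cord wells against 21 brain wells for their neuronal molecules. With every well thinned to 1000 molecules the brain was 14.9 points below the cord (28.7% against 43.6%, exact permutation p = 0.238). Counted with the wells left out, the brain was 25.8 points below the cord (exact permutation p = 0.190). How embryos or GFP gates differed between the sets was not tested, and the share of wells on a chip is not a share of cells in the tissue.

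**Figure D2:**
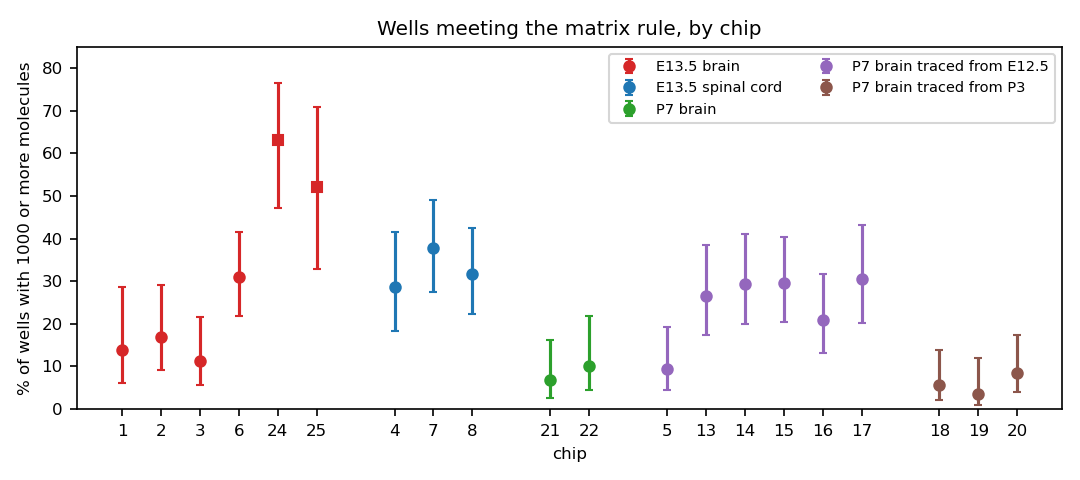
Percent of wells on each chip that met the mesenchymal rule, with 95% Wilson intervals, in E13.5 brain (red, circles for set A and squares for set B), E13.5 spinal cord (blue), P7 brain (green), P7 brain traced from E12.5 (purple) and from P3 (brown). The 6 E13.5 brain chips ran from 11.3% to 63.2%, and the 3 cord chips lay between 28.6% and 37.8%.

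The 82 wells were not uniform. Leiden clustering of these wells alone gave 6 clusters of 18, 17, 15, 14, 12 and 6 wells, which are described without a test because the same counts made them. The cluster of 17 wells was led by genes of forebrain interneuron progenitors, with Dlx2 at 476 CPM against 65.2 CPM in the remaining mesenchymal wells and Dlx6os1 at 332 against 53.0 CPM. All 17 of its wells held at least 3 neural molecules, and their median depth was 6208 molecules against 2243 to 4421 in the other clusters. Its wells still held 8229 CPM of the 5 collagen and matrix genes. The cluster of 6 wells was led by Ttr, the carrier protein made by the choroid plexus, at 6618 CPM against 23.3 CPM, and by Ptgds at 1505 against 59.9 CPM. These 6 wells came from chips 6, 24 and 25, and their Ptgds molecules from the 2 wells of chip 24 at most. Ttr was also at 3385 CPM in the other wells of the chips. The cluster of 12 wells was led by Sox8 (315 against 3.47 CPM). The cluster of 18 was led by St3gal1 and Cdk7, that of 15 by Slc7a14 and Commd7 and that of 14 by Cbfa2t2 and Rlf, which name no cell type. At least 3 molecules of the cycling genes Mki67, Top2a, Ccnb1, Cdk1, Ube2c, Birc5 and Cenpf together were found in 26 wells (31.7%). A wider list of 21 cell cycle genes summed to 816 to 3362 CPM per chip, overlapping the 1582 to 4081 CPM of the other wells.

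**Figure D3:**
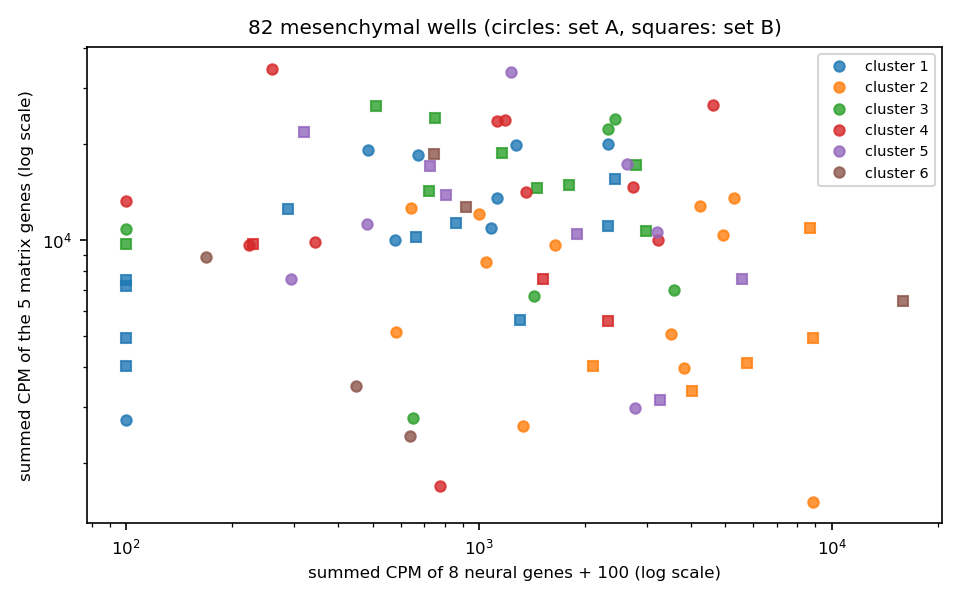
Each of the 82 mesenchymal wells by the summed CPM of the 8 neural genes (CPM + 100, log axis) and of the 5 collagen and matrix genes, coloured by cluster, with circles for set A and squares for set B. The 17 wells of cluster 2 lie toward high neural and lower matrix expression (3019 and 8229 CPM over the cluster).

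The same rule was applied to the E13.5 spinal cord, where 69 of 209 wells met it, to ask how mesenchyme of the brain differed from that of the cord at the same age. The cord chips share a sample number that no brain chip has, so region and experiment cannot be told apart. Neural molecules were as common there, with at least 3 in 44 wells (63.8%), and OPC genes reached 3 molecules in 3 wells (4.35%). In edgeR's quasi-likelihood test on the molecules summed per chip, 12 of 1416 genes (0.847%) passed a Benjamini-Hochberg adjusted p of 0.05, 7 higher in the brain (0.494%) and 5 lower (0.353%), and 122 had an unadjusted p below 0.05. For each of the 12, no brain chip overlapped a cord chip, as was the case for 59 of the 1416 genes (4.17%). Msx1, Slc22a6 and Tbx18 were on the brain side, and Hoxc8, Igfbp5, Igf2 and H19 on the cord side.

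Msx1, a homeobox factor of neural crest derived mesenchyme, was at 340, 87.2, 114, 310, 445 and 519 CPM on brain chips 1, 2, 3, 6, 24 and 25, and at 0, 13.7 and 0 CPM on the cord chips 4, 7 and 8. The cord held 2 molecules, which makes the brain 60.9 times higher with a 95% counting interval of 16.5 to 509 (log2 fold change 5.53 ± 0.83 SE, edgeR adjusted p = 1.76e-04). Msx1 was also present in the other brain wells at 190 CPM. Slc22a6, an organic anion transporter of meninges, was at 110 to 340 CPM in the brain (median 204) and at 0, 13.7 and 0 CPM in the cord. With 2 molecules in the cord the brain was 29.4 times higher, with an interval of 7.75 to 249 (4.84 ± 0.99, edgeR adjusted p = 0.0110). Other brain wells held Slc22a6 at 18.2 CPM. Tbx18 was at 680, 610, 569, 541, 338 and 519 CPM in the brain and at 36.3, 95.8 and 85.2 CPM in the cord (2.73 ± 0.41, edgeR adjusted p = 1.76e-04). Every brain chip was above every cord chip for these 3 genes. The promoters of Tbx18 (chr9:87731211-87731510, minus strand) and Slc22a6 (chr19:8617746-8618045, plus strand) are shown in the same way as those of the collagens, since these genes separated the regions and passed the test in most alternatives.
Tbx18: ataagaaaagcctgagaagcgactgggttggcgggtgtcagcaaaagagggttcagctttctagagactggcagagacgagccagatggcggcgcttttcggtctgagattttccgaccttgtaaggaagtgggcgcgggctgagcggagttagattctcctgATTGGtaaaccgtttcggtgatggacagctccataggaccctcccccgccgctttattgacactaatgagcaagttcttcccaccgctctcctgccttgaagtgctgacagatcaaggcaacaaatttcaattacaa
Slc22a6: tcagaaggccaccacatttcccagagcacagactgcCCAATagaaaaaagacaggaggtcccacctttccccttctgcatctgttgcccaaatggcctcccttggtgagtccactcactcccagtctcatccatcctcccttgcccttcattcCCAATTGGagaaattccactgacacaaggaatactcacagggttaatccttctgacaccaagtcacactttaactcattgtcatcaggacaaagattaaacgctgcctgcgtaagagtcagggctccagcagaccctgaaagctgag
Tbx18 had CCAAT on the opposite strand at -87. Slc22a6 had it at -214 and -97 and, on the opposite strand and overlapping the latter, at -94.

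The remaining genes that were higher in the brain mesenchyme differed less. Ranbp3l was at 91.3 to 480 CPM (median 326) against 0, 54.7 and 48.7 CPM in the cord (2.84 ± 0.65, edgeR adjusted p = 0.0223). Cped1 was at 218 to 732 CPM (median 503) against 109, 157 and 85.2 CPM (1.96 ± 0.45, edgeR adjusted p = 0.0223). Vegfa, the growth factor of blood vessels, was at 176 to 680 CPM (median 382) against 127, 61.6 and 122 CPM (1.90 ± 0.47, edgeR adjusted p = 0.0474). Nr2f1, an orphan nuclear receptor, was at 378 to 1003 CPM (median 556) against 109, 219 and 250 CPM (1.59 ± 0.39, edgeR adjusted p = 0.0474). Nr2f1 was also at 889 CPM in the other brain wells, above its level in the mesenchymal wells. It was the one of the 7 genes for which this was so, and together with Vegfa it lost the call most often under other settings. Frem1 (2.33, edgeR adjusted p = 0.0566) and Apod (1.58, edgeR adjusted p = 0.0983) did not pass.

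Igfbp5, a secreted IGF-binding protein, separated the regions furthest among the abundant genes. It was at 136, 43.6, 455, 140, 92.1 and 23.6 CPM in the brain and at 3284, 2566 and 3451 CPM in the cord, so that the brain fell by 4.45 on the log2 scale (SE 0.42, edgeR adjusted p = 5.08e-08). Igf2, the fetal growth factor, was at 1176 to 1971 CPM in the brain (median 1723) against 3556, 3483 and 4249 CPM (-1.17 ± 0.27, edgeR adjusted p = 0.0223). H19, the noncoding RNA of the same imprinted locus, was at 304 to 952 CPM (median 577) against 1197, 1711 and 1747 CPM (-1.48 ± 0.33, edgeR adjusted p = 0.0223). Thus 3 of the 8 tested members of the IGF list were lower in the brain, 0 were higher, and the list's median was -0.49 against 0.02 for all 1416 genes. The other 5, Igfbp2 and Igfbp4 among them (-0.51 and 0.31), did not pass. Igf2 lost its call in 7 of 22 alternatives and H19 in 8 of 22, both also without the wells that held neural molecules. Agps, an enzyme of ether lipid synthesis, was at 0 to 131 CPM (median 83.6) against 308, 328 and 493 CPM (-2.44 ± 0.55, edgeR adjusted p = 0.0223). The other wells of the 2 regions differed in the same direction, so these differences were not particular to the mesenchymal wells. There Igfbp5 was at 233 CPM in the brain and 1179 CPM in the cord, and Igf2 at 268 and 1220 CPM. H19 was at 115 and 372 CPM and Agps at 49.5 and 171 CPM.

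Hox genes, which mark position along the trunk, were almost absent from the brain mesenchyme. Hoxc8 had 0 molecules on all 6 brain chips and was at 236, 185 and 201 CPM in the cord, at least 22.4-fold higher there when the brain is set at 3 molecules over the group (edgeR adjusted p = 0.00809). The 39 Hox genes together gave 1 molecule in the brain wells, of Hoxb9 on chip 25, and 1470, 1644 and 2244 CPM on the cord chips. By this 1 molecule the cord was 624 times higher, with a 95% counting interval of 112 to 2.47e+04. Hoxc8 was the one Hox gene with enough molecules for the test. It was also at 199 CPM in the other cord wells and at 0 CPM in the other brain wells. Without a filter on low counts 50 of 13727 genes (0.364%) passed, and 12 of the 27 Hox genes then tested were among them, including Hoxa5, Hoxb3, Hoxb4, Hoxb5 and Hoxb9. All Hox genes tested except Hoxb9, Hoxc8 included, had 0 molecules in the brain wells and entered through the cord. They could thus only come out lower in the brain. The P7 brain mesenchyme also had 0 Hox molecules.

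Further genes passed in the edgeR test without a filter on low counts. Ttr, Dlx1, Dlx2 and Dlx6os1 were among them, and with 0 molecules in the cord mesenchyme they could only come out higher in the brain. Each was higher still in the other brain wells. Ptgds was also higher in the brain (edgeR adjusted p = 1.17e-06), but its 71 molecules lay on chips 1 and 24 alone. The contractile and pericyte genes Rgs5, Kcnj8 and Acta2 were lower in the brain, with 4, 1 and 2 molecules against 46, 43 and 53 in the cord (edgeR adjusted p = 0.00860, 4.94e-04 and 0.00303). Col8a1, a short-chain collagen of vessels and eye, had 2 molecules against 54 (edgeR adjusted p = 6.54e-04). Alx4, the cranial factor, had 20 molecules in the brain and 0 in the cord.

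No gene of the matrix lists passed between the regions in edgeR with the filter on low counts, and the genes of the rule were left out of the test. Of the list members tested, 0 of 13 other collagens, 0 of 5 genes of collagen synthesis, 0 of 8 basement membrane genes and 0 of 12 proteoglycans and glycoproteins passed with edgeR, with 1, 1, 2 and 4 of them at an unadjusted p below 0.05. DESeq2 called 1 of 25 other collagens, Col8a1, and 0 members of the other 3 lists. Without a filter edgeR called 1 of 25 other collagens and 1 of 30 proteoglycans and glycoproteins, both lower in the brain. With the filter the edgeR medians were 0.28, -0.77, 0.13 and -0.41. Aldh1a2 was at 77.4 CPM in the brain and 326 CPM in the cord (-1.64, edgeR adjusted p = 0.408). Of the mesenchymal transcription factors, 3 of 13 were higher (Msx1, Tbx18 and Nr2f1) and 0 lower, with a list median of 0.19. Foxc1, Prrx1 and Zic1 had log2 differences of -0.38, 0.17 and 0.00 (edgeR adjusted p = 0.926, 0.973 and 1.000). The transport and junction list had 1 higher of 11 (Slc22a6). Without the wells that held neural molecules 1 gene passed of 556 tested, Igfbp5, and without cord chip 8 there were 3.

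**Figure D4:**
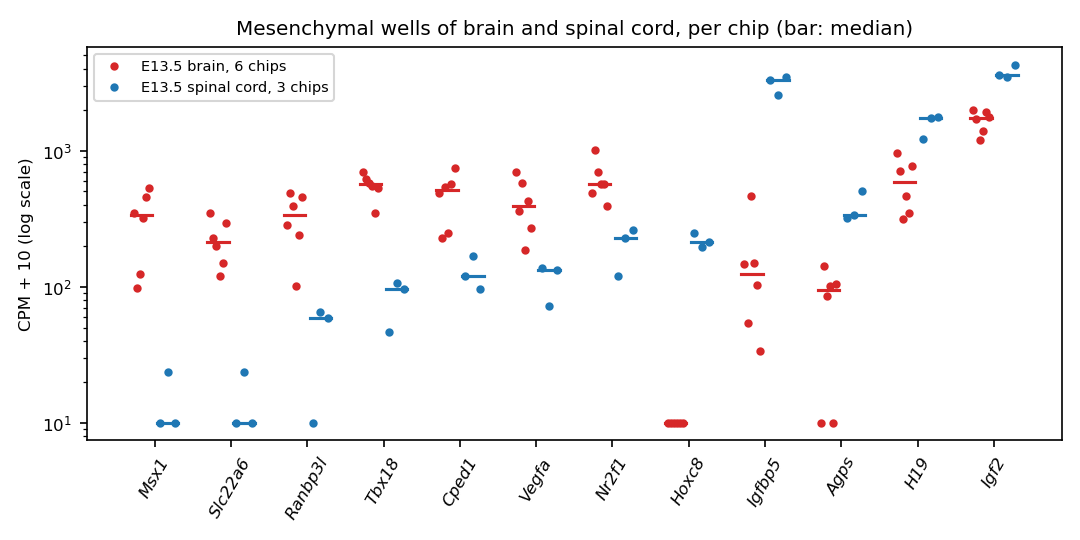
CPM (+ 10, log axis) of the 12 genes that differed between E13.5 brain (red) and spinal cord (blue) mesenchymal wells, 1 point per chip. The 6 brain chips and the 3 cord chips do not overlap for any of the 12.

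The E13.5 brain mesenchyme was also compared with the P7 brain, where 120 wells on 11 chips met the rule: 9 wells of Pdgfra-H2BGFP mice, 99 traced from E12.5 and 12 traced from P3. Chips with at least 3 such wells entered the test, 6 at E13.5 and 10 at P7. The comparison uses the same E13.5 brain chips as the comparison of regions. With edgeR, 188 of 647 genes (29.1%) passed, 89 higher at E13.5 (13.8%) and 99 lower (15.3%), and without a filter on low counts 616 of 14077 (4.38%) passed. The levels of OPC and neuronal genes in the chosen wells also differed between the ages. The list of 12 OPC genes, Pdgfra among them, summed to 190 to 1888 CPM at E13.5 and 655 to 6118 CPM at P7. The smaller set of OPC genes named earlier, without Pdgfra, reached 3 molecules in 14.6% of E13.5 wells. At P7 it did so in 68.7% of the wells traced from E12.5, 66.7% of those traced from P3 and 22.2% of the H2BGFP wells. Neuronal genes outside the rule summed to 1959 to 4839 CPM at E13.5 and 80.1 to 1923 CPM at P7. Of the 89 genes higher at E13.5, 52 were also above the other E13.5 wells in the mesenchymal wells and 37 were not. Of the 99 lower genes, 74 were above the other P7 wells in the P7 mesenchymal wells and 25 were not.

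Genes of solute transport and cell junctions were lower in the embryo. Of 17 tested members of this list, 12 were lower and 2 higher at E13.5, with a median log2 difference of -2.01 against -0.03 for all 647 genes. Slc13a4, a sulfate transporter of meninges, had 0 molecules on the 6 E13.5 chips and was at 113 to 898 CPM at P7 (median 386), at least 44.0-fold higher when E13.5 is set at 3 molecules over the group (edgeR adjusted p = 2.02e-06). It entered the test through the P7 chips alone and could thus only come out lower at E13.5. Slc6a13, which carries GABA and taurine, was at 184 to 472 CPM (median 378) against 1013 to 1993 CPM (median 1391) at P7 (-2.18 ± 0.27, edgeR adjusted p = 1.30e-06). Slc7a11, the cystine and glutamate exchanger, was at 87.2 to 448 CPM (median 283) against 563 to 5286 CPM (-2.26 ± 0.42, edgeR adjusted p = 1.90e-04). The chips of the 2 ages did not overlap for any of these 3 transporters, which held for 42 of all 647 genes tested (6.49%). Gjb6, a gap junction protein, was at 36.5 to 204 CPM against 164 to 1489 CPM (-2.29 ± 0.46, edgeR adjusted p = 4.43e-04). Slc22a6 was lower by a smaller amount (-1.23 ± 0.40, edgeR adjusted p = 0.0216). The adhesion protein Cdh11 went the other way, at 218 to 952 CPM (median 622) against 0 to 370 CPM (2.28 ± 0.44, edgeR adjusted p = 2.81e-04), as did Gja1 (0.67 ± 0.24, edgeR adjusted p = 0.0373). Gja1 lost its call in 18 of 31 alternatives, the H2BGFP chips alone among them. Without wells that held 3 or more OPC molecules, 8 list members could be tested and 6 were lower, with a median of -1.84. Against the H2BGFP chips alone, which share the line of the embryos, 13 were tested, 6 were lower and 1 was higher, with a median of -1.08.

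Among secreted proteins the direction varied from gene to gene. Apoe, a lipid carrier, was at 0 to 283 CPM (median 91.7) against 764 to 4325 CPM (median 1463) at P7 (-3.95 ± 0.48, edgeR adjusted p = 9.42e-07). Apod was at 491 to 1767 CPM against 1923 to 7301 CPM (-2.01 ± 0.32, edgeR adjusted p = 2.49e-05). Ptn, a heparin-binding growth factor, was at 476 to 1888 CPM (median 1166) against 5947 to 18262 CPM (median 8186), so that E13.5 fell by 3.15 on the log2 scale (SE 0.32, edgeR adjusted p = 8.03e-08). The ranges of the 2 ages were apart for these 3 genes. Edn3, a peptide of the endothelin family, was at 107 to 340 CPM against 389 to 1489 CPM (-2.33 ± 0.33, edgeR adjusted p = 5.24e-06). Vegfa was higher at E13.5 (1.23, edgeR adjusted p = 0.0286), and Bmp7 and Mdk did not pass (0.05 and -0.07, edgeR adjusted p = 0.919 and 0.884). Cxcl12 was slightly lower (-0.72 ± 0.27, edgeR adjusted p = 0.0430), and the call was lost in 19 of 31 alternatives. Ptgds, which makes prostaglandin D2 and carries lipids in the cerebrospinal fluid, had a median of 0 CPM at E13.5 and 6305 CPM at P7 (-5.45 ± 1.28, edgeR adjusted p = 0.00199). Its P7 level lay in the traced chips, while the H2BGFP chips were at 80.1 and 0 CPM, and against these alone the direction turned (3.05, edgeR adjusted p = 0.382).

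The IGF genes moved apart with age. Igf2 was at 1176 to 1971 CPM at E13.5 (median 1723) and at 4361 to 10012 CPM at P7 (median 7065), with no overlap (-2.0 ± 0.23, edgeR adjusted p = 5.48e-07). H19 was at 304 to 952 CPM at E13.5 and at 0 CPM on most P7 chips, with a highest value of 456 CPM (2.67 ± 0.58, edgeR adjusted p = 0.00103). Both genes were called under every alternative in which they were tested. Igfbp2 was lower at E13.5 (-1.12 ± 0.27, edgeR adjusted p = 0.00275), a call lost against the H2BGFP chips alone. In the cord of E13.5, set beside these values, Igf2 was at 3838 CPM over all mesenchymal wells, against 1563 CPM in the E13.5 brain and 6294 CPM in the P7 brain.

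Among matrix genes, those higher at E13.5 were fibrillar and type VI collagens, a fibrillin and a proteoglycan. Of 10 other collagens tested, 3 were higher (Col5a2, Col6a3 and Col11a1) and 0 lower, with a list median of 0.46. Without a filter on low counts 3 of 25 were higher and 2 lower, with a median of 0.03. Col6a3 lost its call there and against the H2BGFP chips alone. Without wells with OPC molecules 4 could be tested, with a median of 0.21, and Col5a2 no longer passed (0.82, edgeR adjusted p = 0.220). Col5a2, which limits the width of collagen fibrils, differed by 1.33 ± 0.33 (edgeR adjusted p = 0.00315). Fbn2 was at 851 CPM at E13.5 and 292 CPM at P7 (1.77 ± 0.33, edgeR adjusted p = 1.81e-04), and Vcan, a large proteoglycan of embryonic matrix, was at 637 to 2352 CPM against 0 to 523 CPM (2.35 ± 0.43, edgeR adjusted p = 1.51e-04). Fbn2 lost its call against the H2BGFP chips alone. Vcan was also at 586 CPM in the other E13.5 wells. Of 5 proteoglycans and glycoproteins tested, 2 were higher and 1 lower, but without a filter on low counts 3 of 31 were higher and 10 lower, with a median of -0.91. Among the latter was Fmod, a small collagen-binding proteoglycan, with 1 molecule at E13.5 and 75 at P7, a ratio of P7 to E13.5 CPM of 56.2 (95% counting interval 9.79 to 2250). Pcolce, which speeds the trimming of procollagen, and Sparc were lower at E13.5 (-2.39 ± 0.38 and -1.20 ± 0.23, edgeR adjusted p = 2.69e-05 and 2.26e-04). The basement membrane list had 0 of 6 tested genes called by edgeR and 0 at an unadjusted p below 0.05, while DESeq2 called 1 of 15, Frem1. In edgeR Col4a1 and Lamb1 were at 0.35 and 0.28 on the log2 scale (edgeR adjusted p = 0.392 and 0.561).

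Transcription factors and receptors followed. Zic1 was at 708 to 1594 CPM (median 756) against 205 to 561 CPM at P7 (1.40 ± 0.25, edgeR adjusted p = 1.38e-04), and Nr2f2 was also higher (1.38). Against the H2BGFP chips alone the Zic1 call was lost. Tbx18 was slightly lower at E13.5 (-0.80 ± 0.29, edgeR adjusted p = 0.0402), a call lost in 24 of 31 alternatives. Pdgfra was at 301 CPM at E13.5 and 904 CPM at P7 (-1.30 ± 0.39, edgeR adjusted p = 0.0130). Pdgfra is also a gene of OPCs and is itself in the OPC list whose sums are given above. Whether its change came from OPC RNA was not tested. The Pdgfra call was lost against the H2BGFP chips alone. Vtn was lower at E13.5 (-2.26 ± 0.29, edgeR adjusted p = 1.44e-06).

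Of the 20 genes with the largest differences and no overlap, those higher at E13.5 included Sox11, Meg3, Nnat, Stmn1, Grb10 and Vcan. Sox11, a factor of immature cells, was at 1020 to 3880 CPM (median 2080) against 0 to 452 CPM (4.58 ± 0.43, edgeR adjusted p = 2.63e-08). It was higher still in the other E13.5 wells, at 5922 CPM, and so were Meg3, Nnat and Stmn1, at 2469, 3956 and 1183 CPM. Meg3, an imprinted noncoding RNA, was at 816 to 3923 CPM against 164 to 581 CPM (2.63 ± 0.35, edgeR adjusted p = 2.82e-06). Grb10, an imprinted inhibitor of insulin and IGF signalling, was at 543 to 1359 CPM against 56.6 to 328 CPM (2.33 ± 0.31, edgeR adjusted p = 2.28e-06). Those lower included Cd9, a tetraspanin, at 0 to 68.0 CPM against 80.1 to 2064 CPM (-4.53 ± 0.61, edgeR adjusted p = 2.82e-06), and Gatm, Ifitm3, Nupr1 and Serpine2 with log2 differences of -3.79, -3.10, -2.86 and -2.83. Nupr1 and Serpine2 lost their calls against the H2BGFP chips alone. In the other P7 wells Cd9, Serpine2 and Gatm were at 2470, 2709 and 738 CPM, above the 824, 1281 and 491 CPM of the P7 mesenchymal wells.

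**Figure D5:**
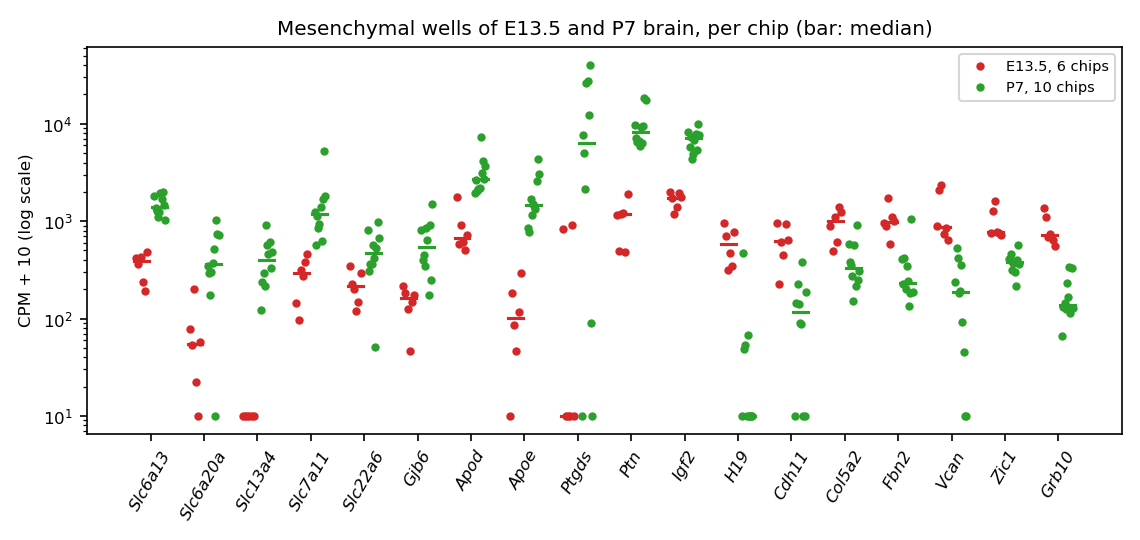
CPM (+ 10, log axis) of 18 genes in mesenchymal wells of the E13.5 brain (6 chips) and the P7 brain (10 chips), 1 point per chip. Transporters, Apod, Apoe, Ptn and Igf2 lie lower at E13.5, while H19, Cdh11, Col5a2, Fbn2, Vcan, Zic1 and Grb10 lie higher.

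Within the E13.5 brain, the mesenchymal wells of sets B and A were compared, since these chips differed in the share of such wells. With edgeR 6 of 831 genes (0.722%) passed, 3 higher in set B (0.361%) and 3 lower (0.361%), and 81 had an unadjusted p below 0.05. Fn1, the fibronectin gene, was at 1428 and 1440 CPM on chips 24 and 25 and at 68.0 to 511 CPM on the 4 chips of set A (2.29 ± 0.48, edgeR adjusted p = 4.71e-04). Itm2a, a membrane protein of mesenchymal cells, was at 983 and 1817 CPM against 218 to 476 CPM (1.89 ± 0.48, edgeR adjusted p = 0.0118). Xist, the RNA of X inactivation, was at 4882 and 5240 CPM against 379 to 3705 CPM (1.72 ± 0.37, edgeR adjusted p = 6.72e-04), and embryos of both sexes were used, without a stated number per chip. Hes1, a target of Notch, was at 107 and 118 CPM against 915 to 3262 CPM (-3.84 ± 0.58, edgeR adjusted p = 3.56e-08). The immediate early genes Fos and Jun were at 123 and 23.6 CPM and at 353 and 330 CPM, against 657 to 1177 and 952 to 1744 CPM (-3.34 ± 0.66 and -1.83 ± 0.51, edgeR adjusted p = 1.76e-04 and 0.0423). No chip overlapped between the sets for these 6 genes, as was the case for 149 of the 831 genes tested (17.9%). Jun lost its call in 7 of 10 alternatives, Xist in 6 and Itm2a in 5. Without the wells that held 3 or more neural molecules, 0 of 317 genes passed with edgeR and 36 had an unadjusted p below 0.05. That fit held 2 chips of each set, and none of the 6 genes turned direction.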

How the data were processed

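The values are molecule counts per gene symbol and well, as deposited by the authors without normalization, from STRT-seq with molecular identifiers on Fluidigm C1 chips. The build mm10 stands in the submitters' processing notes, and the aligner is not given in the sources used here. By the study's methods, captured wells were imaged and screened before sequencing. The study also counted cells as doublets where oligodendrocyte and neuronal genes, or OPC and VLMC genes, were expressed together. No doublet caller was run here, and wells with OPC molecules were kept.

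Mitochondrial, spike-in and reporter rows were left out of depth, and wells with at least 1000 molecules were kept. The members and the gene lists were chosen with earlier results of these data known. Molecules of the chosen wells were summed per chip (at least 3 wells) and tested with the quasi-likelihood F-test of edgeR 4.0.16 (TMM, filterByExpr, genes of the rule left out), two-sided, with Benjamini-Hochberg adjustment over all genes tested and a threshold of 0.05. DESeq2 1.42.0 in R 4.3.3 was the alternative. Shares were compared by exact permutation over chips (scipy 1.17.1). Clusters came from scanpy 1.11.5 and leidenalg 0.10.2 with 1000 variable genes, 15 components, 10 neighbours and resolution 1.0. Each fit was first tested on simulated counts. Genes were named if they were in a list, among the 10 largest calls per direction without overlap of chips, among the 30 leading genes against other wells (pseudocount 50 CPM) or leading a cluster. Fos, Jun, Hes1, Xist, Fn1 and Itm2a were called by the rule, and Egr1, Junb, Mest, Cdkn1c and Dlk1 were chosen after their values were seen. A few genes that would qualify are not reported here. One chip (chip 9) has conflicting labels and entered no comparison. Intervals and floors cover counting error only.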

Additional observations from a re-analysis of the deposited data

Results flagged for a closer look

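Over the 6 E13.5 brain chips, 92 sets of chip values were examined for a highest or lowest chip far from the rest by Dixon's 95% limit, and 10 had one. For normally distributed values that limit flags about 1 in 20 sets. Lists with molecules on 1 chip only, those of Hox and red blood cell genes, are flagged in any case. The 10 can therefore not be weighed against that rate. Chip 6 had the deepest mesenchymal wells, with a median of 6764 molecules. Chip 3 stood above the other chips for Igfbp5 (455 CPM), for Cxcl12 (1632 CPM) and for Serpinf1 (569 CPM). Chip 24 was the highest for 3110035E14Rik (46.1 CPM) and chip 6 for Gatm (97.3 CPM), genes near the floor at E13.5. The IGF list was highest on chip 1 (8360 CPM), the single Hox molecule put chip 25 at 23.6 CPM, the pericyte list was lowest at 1013 CPM on 1 chip, and red blood cell genes were seen on 1 chip at 30.7 CPM.

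Chip 9, whose labels conflict and which entered no comparison, held 24 of 78 wells (30.8%) that met the mesenchymal rule, with a median of 8408 molecules. Its title gives P7 spinal cord, while its column names carry the sample number of the E13.5 cord chips. The number of E13.5 cord chips in the study's methods is reached only with chip 9 counted among them.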

How the results depend on the processing

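The cause of the changes given here was not tested, and many settings also leave fewer wells or chips. For brain against cord, 12 of 1416 genes passed. The count was 25 of 13726 with DESeq2, 50 of 13727 without a filter on low counts, 4 of 998 with under 1 neuronal molecule, 1 of 556 without wells with neural molecules, 5 of 754 without cycling wells, 7 of 1210 with brain chips of set A only and 59 of 1632 with those of set B only. Leaving out single chips gave 3 to 14 (4 without cord chip 7 and 3 without cord chip 8). Of 240 values of the 12 named genes under alternatives, 175 kept the call and 0 turned. Igfbp5 was called in 22 of 22 alternatives, Msx1 in 19 of 19, Hoxc8 in 12 of 12 and Tbx18 in 21 of 22, but Nr2f1 in 9 of 22 and Vegfa in 5 of 21.

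For E13.5 against P7, 188 of 647 genes passed. The count was 491 of 14073 with DESeq2, 616 of 14077 (4.38%) without a filter, 60 of 215 without wells with OPC molecules (chosen after seeing the data), 320 of 1602 with at least 10 wells per chip, 110 of 523 without neural wells, 107 of 370 without cycling wells and 83 of 628 with the H2BGFP chips alone at P7. Leaving out single chips gave 134 to 233. Of 1685 values of 60 named genes, 1517 kept the call and 1 turned, Ptgds (3.05 with the H2BGFP chips alone).

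Between sets B and A, 6 genes passed, against 2 with DESeq2, 3 without a filter and 0 without neural wells (chosen after seeing the data, with 36 of 317 genes at an unadjusted p below 0.05 in edgeR). Leaving out single chips gave 3 to 8 (3 without chip 3). The brain minus cord share of -1.29 points was -14.9 with wells thinned to 1000 molecules, -3.87 with at least 10 matrix molecules, 0.57 with at least 3 matrix molecules, 4.81 with under 1 neuronal molecule, 3.05 with at least 2000 molecules per well and 25.0 with set B alone. It ran from -7.65 to 2.73 without single chips. Clustering gave 2 and 13 clusters at resolutions 0.5 and 2.0. No paired analysis was possible because the chip numbers are unique and shared by no groups.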

Other observations

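Imprinted genes outside the fixed lists were looked at after the values of Igf2, H19, Meg3, Grb10 and Nnat were seen. Mest, an imprinted hydrolase, was higher at E13.5 than at P7 (log2 difference 2.54, edgeR adjusted p = 1.53e-05), a call lost against the H2BGFP chips alone. Without a filter on low counts, Cdkn1c, an inhibitor of the cell cycle, and Dlk1, a Notch-family ligand, were also higher at E13.5 (2.15 and 2.59, edgeR adjusted p = 5.38e-05 and 0.0389), as was Plagl1, an imprinted zinc finger factor (2.98, edgeR adjusted p = 0.0486). Peg3, Ndn, Peg10, Snrpn and Zdbf2 did not pass. Of the genes named in this paragraph that passed, Igf2 was the one that was lower at E13.5. They do not cover all imprinted genes.

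The other immediate early genes looked at after Fos and Jun were seen were Egr1 and Junb. Egr1 was at 1020, 1003, 721 and 517 CPM on chips 1, 2, 3 and 6 of set A and at 246 and 165 CPM on chips 24 and 25 of set B. Junb was at 136, 262, 645 and 60.8 CPM and at 0 and 0 CPM. Egr1 did not pass the test between the sets (edgeR adjusted p = 0.111), and Junb could be tested only without a filter on low counts (edgeR adjusted p = 0.163).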
